A study of Mus musculus with 15 samples.

Results

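The genes described here encode amino acid transporters and their close relatives in the solute carrier families Slc1, Slc3, Slc6, Slc7, Slc36, Slc38 and Slc43. Members were taken by a rule on symbols and not on values, with Slc38a4 and antisense names set aside. Earlier results of these data were known when the members were chosen. There were 60 members in all, of which 59 were among the 51627 genes of the stem cell table and 60 among the 53564 genes of the embryo table; Slc7a7 is described in embryos only and was not analysed here in stem cells. Gene expression was measured in 15 mouse libraries. The 4 labelled groups were 2 control and 2 Zscan4-overexpressing (Zscan4 OE) libraries of J1 mouse embryonic stem cells (ESCs), which were cultured feeder-free and carry the passage label PN+8, and 5 wild type control and 6 Zscan4 RNAi libraries of 2-cell embryos. Zscan4 proteins are zinc finger factors with a SCAN domain whose genes are active at the 2-cell stage and, in culture, in a minority of ESCs at a time. The labels do not give the construct, the RNAi reagent, the strain, or the number of embryos in a library, and nothing says that replicates came from separate cultures or embryo pools, so p-values speak of the spread among these libraries only, which may be technical.

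Amino acid transporters move amino acids across the plasma membrane or the lysosomal membrane, and many use the gradients of sodium or protons to do so. The light chains of the Slc7 family reach the cell surface only when joined to a heavy chain, Slc3a2 or Slc3a1, while the cationic amino acid carriers Slc7a1 to Slc7a4 need no partner. Cleavage-stage mouse embryos are known to accumulate glycine through Slc6a9, which they use to hold their volume, and mouse ESCs are known for their dependence on threonine and glutamine. The families also hold relatives that carry other solutes, such as the monoamine transporters Slc6a2, Slc6a3 and Slc6a4, the creatine transporter Slc6a8 and the nucleobase transporter Slc43a3, so a member is an amino acid transporter only as far as its family name says.

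Values are gene reads divided by a size factor for each library, called normalised reads. The libraries held 21820093 to 26555027 reads in genes in ESCs and 695524 to 1432566 in embryos, where 1 read was worth 0.687 to 1.39 normalised reads. The sum over 9 Zscan4 genes was 182 ± 41.8 normalised reads in control ESCs and 19727 ± 393 with overexpression (SD, n = 2 each), and 734 ± 272 in control embryos (SD, n = 5) against 229.5 ± 142 with RNAi (SD, n = 6). The embryo control sums ran from 345 to 1064, and the lowest, 345 in control 5, lay within the RNAi range of 13.9 to 383. The defining pluripotency markers were present in the ESC libraries and the oocyte and 2-cell markers in the embryo libraries. The libraries are bulk, so fewer cells of a type and less RNA per cell cannot be told apart.

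In control cells, reads of the family were concentrated in few genes. On the scale of normalised reads per kb of exon, the heavy chain Slc3a2 had the highest level in both control groups, 2558 ± 4.91 in ESCs (SD, n = 2) and 62.0 ± 23.0 in embryos (SD, n = 5); the tables were normalised separately, so these levels cannot be compared with each other. In ESCs it was followed by Slc7a5, the large neutral amino acid light chain that carries leucine, at 1743 ± 58.7 per kb, by the taurine transporter Slc6a6 at 688 ± 2.40, by Slc38a10, a member of the sodium-coupled neutral family, at 631 ± 7.69, and by Slc7a6, a light chain that exchanges arginine for neutral amino acids, at 494 ± 1.06 (SD, n = 2 each). The distances between these neighbours exceeded the spread of the 2 control libraries. In embryos Slc3a2 was followed by the glycine transporter Slc6a9 at 15.7 ± 11.3 per kb, the neutral amino acid and glutamine exchanger Slc1a5 at 11.9 ± 8.16, the glutamate, aspartate and cysteine transporter Slc1a1 at 10.2 ± 5.59, and Slc43a3 at 8.34 ± 2.45 (SD, n = 5 each). Those 4 lay within each other's spread, and the mean of Slc3a2 lay above theirs by more than the SDs.

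Reads were found for 54 of 59 members in control ESCs and for 40 of 60 in control embryos. The 3 members without a read in any ESC library were Slc7a12, Slc7a13 and Slc7a15. Large differences in rank between the tables went in both directions. Slc38a10 ranked 4 in control ESCs and 40 in control embryos, and Slc6a21 ranked 51 and 12. Lower ranks in embryos were also found for Slc38a2, a sodium-coupled importer of alanine and glutamine, and the arginine and lysine carrier Slc7a3. They had 421 ± 6.95 and 146 ± 10.9 normalised reads per kb in control ESCs (SD, n = 2). Neither had a read in the 5 control embryo libraries, where 3 reads over the group would correspond to 0.583 normalised reads. Across the 59 members the ranks of the 2 control levels per kb had a Spearman rho of 0.409, given as a description of genes that share libraries and depth. Slc7a5 amounted to 68.1 ± 2.42% of Slc3a2 per kb in control ESCs (SD, n = 2) and to 11.5 ± 8.12% in control embryos (SD, n = 5), both ratios being taken within a library.

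**Figure D1:**
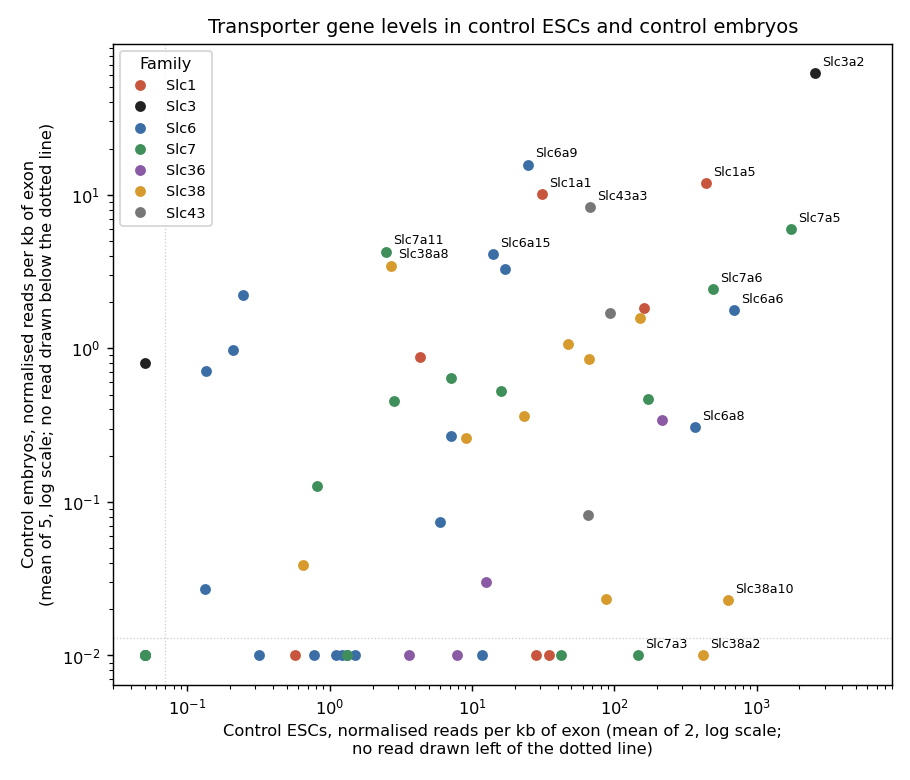
Each point is 1 of the 59 members in both tables, coloured by family, with its mean level per kb of exon in the 2 control ESC libraries on the horizontal axis and in the 5 control embryo libraries on the vertical axis, both logarithmic. Slc3a2 is at the upper right, and Slc7a3 and Slc38a2 lie on the line drawn for no read in embryos.

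With Zscan4 overexpression, 54 of 59 members passed the filter on low values in the ESC table, and 14 of them, 25.9%, passed the threshold of 0.05 on the adjusted p (limma with a trend on log2(value + 1), Benjamini-Hochberg adjustment over 20888 genes). Over all genes tested 23.2% did, 11.7% higher and 11.4% lower. Among the members 2 were higher and 12 lower, 3.70% and 22.2% of those tested, and their median log2 fold change was -0.25 beside -0.02 for all genes. Each log2 fold change was computed from log2(value + 1), so that of a low gene is smaller than its true size, and folds are ratios of group means. The 2 higher members were Slc7a3 and Slc38a6, and the lower ones were 3 of the 4 proton-coupled Slc36 genes, 3 of the 7 Slc1 genes, Slc6a6 and Slc6a16, Slc7a2 and Slc7a4, Slc38a3 and Slc43a2. Among the lower ones, Slc36a2 and Slc36a3 passed the filter through the control libraries alone and could be tested only as lower. Without regard to the test, among the 54 members the 2 overexpression libraries lay above both controls in 17 members and below both in 22, where 34.2% and 34.6% of all genes tested did so.

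The calls in ESCs rested on the closeness of the 2 control libraries. On the log2 scale, SDs had a median of 0.09 between controls and 0.41 between overexpression libraries, and over the members tested it was 0.13 and 0.29. Leaving out control 1 or control 2, or taking the spread from the overexpression libraries alone, left 0 members past the threshold in limma, with 11, 11 and 14 members at an unadjusted p under 0.05; edgeR on all 4 libraries called 2 higher and 12 lower, and DESeq2 3 and 12. Among the lower members DESeq2 called Slc7a6 in place of Slc1a7, and it added Slc38a7 to the higher ones. With the spread of the overexpression libraries alone, limma called 0 of all 20888 genes. Leaving out overexpression 1 or overexpression 2 left 1 library in that group, and called more members and also more of all genes tested. With voom and quality weights the lower members past the threshold were 5, Slc1a5, Slc36a1, Slc43a2, Slc6a6 and Slc7a4. The calls lost most often over the alternatives were those of Slc1a7 (8 of 15), Slc6a16 (7 of 16), Slc38a6 (7 of 16) and Slc1a5 (6 of 16).

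The cationic carriers of the Slc7 family moved in both directions. Slc7a3 (chromosome X, 101079210 to 101086020, mm10) had 523 and 581 normalised reads in the control libraries, against 1741 and 1826 with overexpression. Both overexpression libraries stood well above both controls, 3.23-fold by the means (log2 fold change 1.69, SE 0.17, limma adjusted p = 0.0137). Slc7a2, a second arginine and lysine carrier whose exons overlap Gm26584, had 136 and 155 in the controls and 57.4 and 50.1 with overexpression, 2.71-fold lower (limma adjusted p = 0.0324). Slc7a4, a relative of the cationic carriers whose exons overlap P2rx6, was at 173 and 175 in the controls and at 46.5 and 44.1 with overexpression. That was 3.85-fold lower (limma adjusted p = 0.0188), and neither gene's groups overlapped. Slc7a1, the widely expressed member of this group, did not pass the threshold: its overexpression libraries, at 2522 and 1236, fell on either side of the controls at 1902 and 2065.

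The heavy chain and its main light chains did not pass the threshold in limma. Slc3a2 had 9040 and 9015 normalised reads in control libraries, as against 5785 and 9332 with overexpression, so the overexpression libraries straddled the controls (log2 fold change -0.30, 95% interval -1.04 to 0.45, limma adjusted p = 0.470). Slc7a5 had 6309 and 6617 in the controls and 6744 and 6605 with overexpression (log2 fold change 0.05, 95% interval -0.36 to 0.45, limma adjusted p = 0.844). Slc7a6 went from 2262 and 2255 to 1523 and 972, with no overlap between groups but an adjusted p of 0.0767 in limma. DESeq2 called Slc7a6 lower. The cystine and glutamate exchanger Slc7a11 was at 34.3 and 34.6 in the controls and at 62.0 and 94.2 with overexpression (limma adjusted p = 0.0858). Slc3a1, the heavy chain of the kidney and gut, had no read in the control ESCs and 2 reads with overexpression, and was not tested.

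Of the proton-coupled Slc36 carriers, 3 of 4 fell. Slc36a1, which exports small neutral amino acids from lysosomes and works at the cell surface of gut cells, lies on chromosome 11 (55204350 to 55236330, mm10) and had 1244 and 1188 normalised reads in the controls, compared with 474 and 327 with overexpression. The groups were well apart, 3.04-fold lower with overexpression (log2 fold change -1.62, SE 0.25, limma adjusted p = 0.0222). Its neighbours on the same chromosome were low throughout: Slc36a2, a glycine and proline carrier, had 9.52 and 14.04 in the controls, and Slc36a3 had 17.1 and 19.7. Neither had a read with overexpression. Against a floor of 3 reads over the 2 libraries, Slc36a2 was at least 7.62-fold and Slc36a3 at least 11.9-fold lower (limma adjusted p = 0.0185 and 0.0142). Both passed the filter through the control libraries alone. They could therefore be tested only as lower genes, and their calls add no support for a fall. Slc36a4, on chromosome 9, had 92.4 and 72.1 in the controls, against 91.2 and 44.1 with overexpression, and did not pass the threshold (limma adjusted p = 0.598).

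Genes of chromosome 11 were lower as a whole in the overexpression libraries. Over 1537 genes tested there the median log2 fold change was -0.49, and 23.0% passed the threshold as lower, while the medians of the other 19 chromosomes ran from -0.12 to 0.29, the highest being that of the X chromosome. Of the 12 lower members, 4 lie on chromosome 11: Slc36a1, Slc36a2, Slc36a3 and Slc43a2. The other members tested there were Slc1a4, Slc38a10 and Slc6a4, the last with 2 control reads. They had log2 fold changes of 0.02, -0.23 and 1.68 and did not pass the threshold. With 2 adjustments chosen after seeing the data, Slc7a3 kept its call and Slc43a2 lost its call. Slc36a2 and Slc36a3, tested through their control reads alone, also kept their calls, which adds no support for a fall. When the median log2 fold change of each chromosome was subtracted from its genes, Slc36a1 kept its call (log2 fold change -1.13, limma adjusted p = 0.0415), as did Slc38a6 on chromosome 12, and Slc43a2 was at -0.63 (limma adjusted p = 0.0620). When instead each library was given the same median log2 level on a chromosome, which moved chromosome 11 further, by 0.62, the calls of Slc36a1 (-1.003, limma adjusted p = 0.0709), Slc43a2 (-0.50, limma adjusted p = 0.134) and Slc38a6 (0.84, limma adjusted p = 0.0512) were lost. Slc7a3, on the X chromosome, was at a log2 fold change of 1.403 after the first and 1.09 after the second (limma adjusted p = 0.0172 and 0.0356). The part of the chromosome-wide shift in these members was not tested.

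Among the transporters of acidic amino acids and their neutral relatives, 3 of 7 Slc1 members fell. Slc1a5 had 1843 and 1838 normalised reads in the 2 controls against 906 and 1153 with overexpression, 1.79-fold lower (log2 fold change -0.85, SE 0.19, limma adjusted p = 0.0446). The brain glutamate transporter Slc1a6 had 66.7 and 55.2 in the controls and 5.47 and 9.54 with overexpression, 8.12-fold lower (limma adjusted p = 0.0220). The retinal glutamate transporter Slc1a7 was low, with 9.52 and 19.7 in the controls and 1.82 and 1.19, or 3 reads, with overexpression: the ratio of reads was 9.44, with a 95% exact binomial interval of 2.95 to 48.3 for counting error (limma adjusted p = 0.0400). In all 3 genes both overexpression libraries lay below both controls. Slc1a1 was higher in both overexpression libraries, 346 and 386 against 255 and 256, and did not pass the threshold (limma adjusted p = 0.126). Slc1a4, which exchanges serine, alanine and cysteine, overlapped between the groups at 613 and 646 against 728 and 562.

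Slc6a6, the taurine transporter, had the largest drop in normalised reads among the members. It had 5836 and 5808 in the controls and 2047 and 1283 with overexpression, 3.50-fold lower (log2 fold change -1.84, SE 0.27, limma adjusted p = 0.0214); its exons overlap Gm44981. Slc6a16, an orphan member of the family, had 32.4 and 38.4 in the controls and 2.73 and 8.35 with overexpression, 6.39-fold lower (limma adjusted p = 0.0446). These were the 2 calls among 18 Slc6 members tested, and both groups were separate in each. Slc6a9 was at 132 and 122 in the controls and at 176 and 249 with overexpression (limma adjusted p = 0.132), and its exons overlap B4galt2, Ccdc24 and Gm17114. The creatine transporter Slc6a8 overlapped between the groups, 2001 and 1835 against 1849 and 2438.

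The Slc38 and Slc43 families gave 3 calls. Slc38a6, one of the sodium-coupled neutral amino acid transporters, had 544 and 492 normalised reads in control libraries, as against 1344 and 904 with overexpression, 2.17-fold higher (log2 fold change 1.09, SE 0.26, limma adjusted p = 0.0480). Slc38a3, which carries glutamine, histidine and asparagine, had 247.6 and 249.9 in the controls and 92.1 and 97.8 with overexpression, 2.62-fold lower (limma adjusted p = 0.0248). Slc43a2, a carrier of large neutral amino acids whose exons overlap Gm45606, had 921 and 950.2 in the controls and 436 and 423 with overexpression, 2.18-fold lower (limma adjusted p = 0.0218). All 3 had separate groups. Slc38a9, the lysosomal arginine sensor, and Slc38a7, a glutamine carrier, also had separate groups without passing the threshold: Slc38a9 went from 364 and 417 to 262 and 207 (limma adjusted p = 0.0842), and Slc38a7 from 632 and 625.3 to 962 and 1237 (limma adjusted p = 0.0563). DESeq2, and limma with the filter at 10, called Slc38a7 higher. Slc38a10, the fourth member by level, had 4018 and 4088 in the controls and 3099 and 3838 with overexpression (limma adjusted p = 0.387). Slc43a3 had 285 and 317 in the controls and 448 and 422 with overexpression (limma adjusted p = 0.115).

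**Figure D2:**
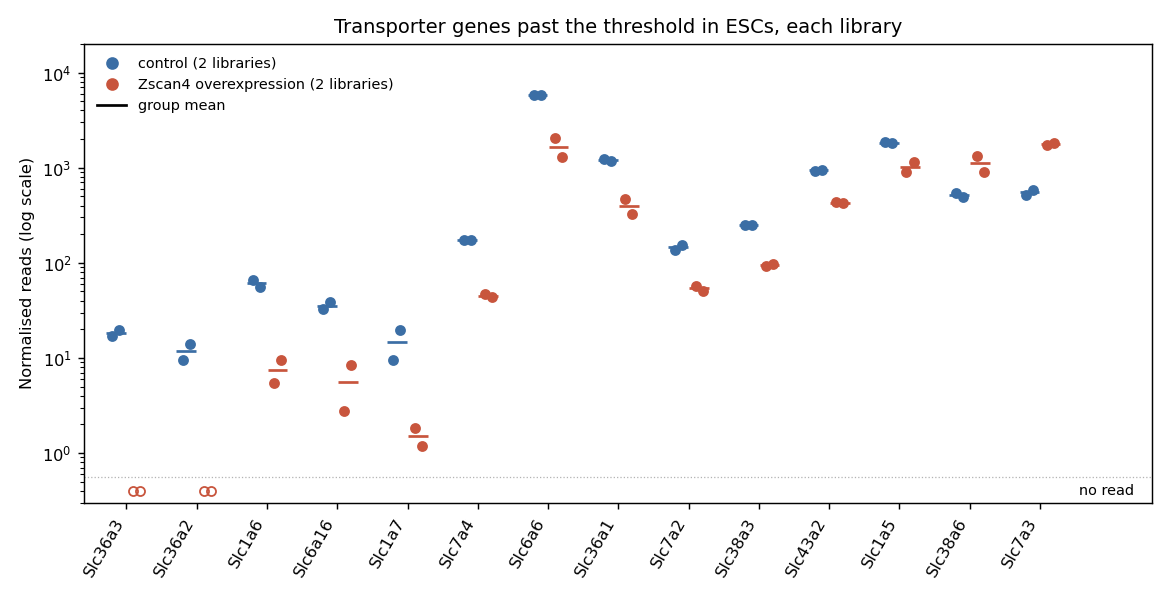
Normalised reads (log axis) of the 14 members past the threshold in ESCs, ordered by fold change, with 2 control (blue) and 2 overexpression (red) libraries as points, group means as bars and libraries without a read as open points. In each gene both overexpression libraries lie on the same side of both controls, and Slc36a2 and Slc36a3 have no read with overexpression.

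Promoter windows are shown for the lower members that shared a sequence feature. RefSeq promoters (build GRCm38.p6, 250 bases before to 50 after the start of transcription) were found for 42 of the 60 members by symbol. The 3 motifs were searched on both strands: the E-box CACGTG, bound by Myc and by the lysosomal regulators Tfeb and Tfe3, the Zscan4 motif TGCACAC, and the amino acid response element TGATGNAA, bound by Atf4. The ends of the E-box and the Zscan4 motif can share letters, but no member's window held more than 1 kind of motif. An E-box was found in 9 of the 42 members, 21.4%, and in 8.09% of all genes of the table (7.15% of its windows). Of the 6 lower ESC members with a window, 4 held an E-box and Slc36a3 and Slc43a2 did not. The other members with one were Slc38a5, Slc38a7, Slc43a1, Slc6a3 and Slc7a14, none of them past the threshold. Their log2 fold changes in ESCs went both ways: 1.46, 0.79, -0.37, -1.64 and 0.51 in that order. With the filter at 10, Slc38a5 and Slc38a7 were called higher. The share of all lower ESC genes with an E-box was not computed, so a link of the motif to the fall was not tested. In Slc36a1 the window held 2 E-boxes, 31 and 3 bases before the start; in Slc1a6, Slc1a7 and Slc6a16 it held 1, at 32, 60 and 40 bases before the start. The 4 windows are chr11:55204090-55204389, chr10:78780246-78780545, chr4:107968156-107968455 and chr7:45240503-45240802, in the order below, all on the plus strand, 5′ to 3′, with the E-box in capitals.
Slc36a1: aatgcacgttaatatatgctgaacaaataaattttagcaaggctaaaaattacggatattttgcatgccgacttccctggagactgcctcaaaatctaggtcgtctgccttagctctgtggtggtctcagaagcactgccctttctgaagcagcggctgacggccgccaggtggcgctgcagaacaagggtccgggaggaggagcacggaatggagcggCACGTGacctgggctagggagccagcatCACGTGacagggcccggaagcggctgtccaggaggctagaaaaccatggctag
Slc1a6: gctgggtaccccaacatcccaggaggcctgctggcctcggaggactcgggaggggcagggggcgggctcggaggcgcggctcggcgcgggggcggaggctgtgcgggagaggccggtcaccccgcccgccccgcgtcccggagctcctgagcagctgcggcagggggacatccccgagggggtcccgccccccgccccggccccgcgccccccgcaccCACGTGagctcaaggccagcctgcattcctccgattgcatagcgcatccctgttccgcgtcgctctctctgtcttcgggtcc
Slc1a7: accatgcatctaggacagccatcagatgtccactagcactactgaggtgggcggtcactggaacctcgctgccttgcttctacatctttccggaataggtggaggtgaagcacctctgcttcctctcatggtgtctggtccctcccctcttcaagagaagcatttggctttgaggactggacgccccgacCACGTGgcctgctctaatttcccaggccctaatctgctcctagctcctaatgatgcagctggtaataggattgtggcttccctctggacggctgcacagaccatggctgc
Slc6a16: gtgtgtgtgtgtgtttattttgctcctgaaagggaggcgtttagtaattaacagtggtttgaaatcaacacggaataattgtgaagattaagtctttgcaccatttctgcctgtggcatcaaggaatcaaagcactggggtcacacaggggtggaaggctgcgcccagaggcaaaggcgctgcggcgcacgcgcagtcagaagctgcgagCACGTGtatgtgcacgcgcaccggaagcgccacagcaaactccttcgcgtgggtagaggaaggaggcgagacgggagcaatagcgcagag

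The Zscan4 motif was found in the windows of 2 of the 42 members, Slc3a1 and Slc6a5, and in 5.02% of all genes (4.40% of windows); neither is among the members past the threshold. The amino acid response element was found in 4, Slc1a4, Slc6a21, Slc7a7 and Slc7a11, and in 4.51% of all genes (3.97% of windows). Slc7a11 held 2 such elements, 66 and 47 bases before its start. These matches describe letters in the windows and not sites in use.

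In 2-cell embryos with Zscan4 RNAi, 29 of 60 members passed the filter on low values, and 5 of them, 17.2%, passed the threshold in limma (adjusted over 16417 genes). Over all genes tested 18.2% did, 6.13% higher and 12% lower, so the members' share was near the background and is not a result about them. The 2 higher members were Slc7a2 and Slc38a10, and the 3 lower ones Slc1a1, Slc1a5 and Slc7a5. Of these, Slc38a10 passed the filter through the RNAi libraries alone. The median log2 fold change was 0.47 in the members and -0.03 over all genes. No member had groups without overlap, where 3.05% of all genes did in the higher and 4.28% in the lower direction. Of all ESC calls 50.7% were higher, or 62.5% with voom and quality weights; of all embryo calls 33.8% were, or 46.5% after quantile normalisation, 42.6% in edgeR and 43.4% with voom.

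The 3 lower members were among the 6 highest by level per kb in control embryos. Slc1a1 (chromosome 19, 28835049 to 28913960, mm10; exons overlapping 4430402I18Rik) had 129.98, 25.8, 123.8, 92.5 and 46.9 normalised reads in controls 1 to 5, and from 1.304 to 35.2 with a median of 9.11 in the 6 RNAi libraries. Only control 2 came within the RNAi range, reached by RNAi 5. The means were 83.8 ± 46.2 (SD, n = 5) and 11.9 ± 12.4 (SD, n = 6), 7.06-fold lower (log2 fold change -3.05, SE 0.62, limma adjusted p = 0.00431). It was called lower in all 20 alternatives run, with adjusted p from 0.000357 to 0.01805.

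Slc1a5 had 37.7, 74.5, 8.35, 93.7 and 34.2 normalised reads in the controls and from 1.16 to 28.9, with a median of 4.83, with RNAi. Control 3 lay among the RNAi libraries and the other 4 above them all. It was 5.02-fold lower by the means of 49.7 ± 34.1 (SD, n = 5) and 9.91 ± 10.9 (SD, n = 6; limma adjusted p = 0.0205), and lost the call without control 2 (limma adjusted p = 0.0645), without control 4 (limma adjusted p = 0.0702) and with voom (adjusted p = 0.0513). Slc7a5 had 16.8, 24.3, 43.1, 16.4 and 9.78 in the controls and from 0 to 14.8, with a median of 4.86, with RNAi. Control 5 lay within the RNAi range. It was 4.10-fold lower (log2 fold change -2.12, SE 0.65, limma adjusted p = 0.0292), with the call lost in 8 of 20 alternatives. Its heavy chain Slc3a2 overlapped between groups: the controls had 315, 123.2, 193.4, 172 and 289, and the RNAi libraries from 118.9 to 229 with a median of 185 (log2 fold change -0.21, 95% interval -0.83 to 0.42, limma adjusted p = 0.672). Within libraries Slc7a5 was 11.5 ± 8.12% of Slc3a2 per kb in controls (SD, n = 5) and 3.50 ± 4.24% with RNAi (SD, n = 6), with overlapping ranges of 3.22 to 21.2% and 0 to 11.8%.

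The 2 higher members were low in control embryos. Slc7a2 had 6.71, 2.21, 6.96, 2.34 and 5.87 normalised reads in the controls and from 6.07 to 33.4, with a median of 20.1, with RNAi. RNAi 6 lay within the control range and the other 5 above it, and the means were 3.86-fold higher with RNAi (log2 fold change 1.66, SE 0.56, limma adjusted p = 0.0451; call lost in 10 of 19 alternatives). Slc38a10, whose exons overlap Gm11769, had 1 read in the 5 controls and 20 in the 6 RNAi libraries, where 5 of 6 had reads. No control reached the filter value of 1. Slc38a10 was therefore tested through the RNAi libraries alone, and its call adds no support for a rise. The ratio of reads was 15.7 with a 95% exact binomial interval of 2.51 to 649 (limma adjusted p = 0.0457), and the call was lost in 14 of 18 alternatives.

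The glycine transporter Slc6a9, second by level in control embryos, did not pass the threshold. It had 66.2, 39.8, 41.7, 74.9 and 180.8 normalised reads in the controls and from 72.1 to 198, with a median of 127, with RNAi, so that controls 4 and 5 lay within the RNAi range and the other 3 below it (log2 fold change 0.90, SE 0.39, limma adjusted p = 0.107). With all libraries it passed in voom with quality weights (log2 fold change 1.05, adjusted p = 0.0424). Without control 5 it passed in limma, at a log2 fold change of 1.25 (limma adjusted p = 0.0163), and so did the taurine transporter Slc6a6 at 1.71 (limma adjusted p = 0.0428). Slc6a6 had 10.9, 2.21, 5.57, 17.6 and 39.1 in the controls and from 15.6 to 78.9, with a median of 21.1, with RNAi (limma adjusted p = 0.149 with all libraries). Control 5 was the highest control in both. It also had the highest oocyte marker sum of the controls, 13173 normalised reads against 7073 to 10689.6 in the other 4, beside 30452 to 44716 with RNAi. Most of each oocyte sum was Zbed3, at 8869 in control 5, and without Zbed3 control 5 was not the highest control. The 2-cell marker sum was lowest in control 5, 1717 against 2265 to 3729.8, beside 558 to 1498 with RNAi. That list holds Zscan4c, Zscan4d and Zscan4f, of the family that the RNAi targets. The part of these marker levels in the values of the members was not tested.

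Other abundant members overlapped between the embryo groups. Slc43a3 had 53.7, 27.3, 30.6, 31.6 and 43.01 in the controls and from 34.7 to 119.6, with a median of 56.3, with RNAi (limma adjusted p = 0.194). Slc7a11, the seventh by level, had 130.8, 50.9, 36.2, 38.6 and 40.1 in the controls and from 13.0 to 119.8, with a median of 72.6, with RNAi (limma adjusted p = 0.820). Slc3a1, whose exons overlap Prepl, had from 0 to 5.57 in the controls and from 0 to 6.87 with RNAi (limma adjusted p = 0.506). Of the 31 members below the filter, 12 had no read in any embryo library. Slc7a8, a light chain for small and large neutral amino acids, had 18 reads in 3 of the controls and none with RNAi, at least 7.66-fold lower by summed reads against a floor of 3 reads over the group, and was not tested.

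**Figure D3:**
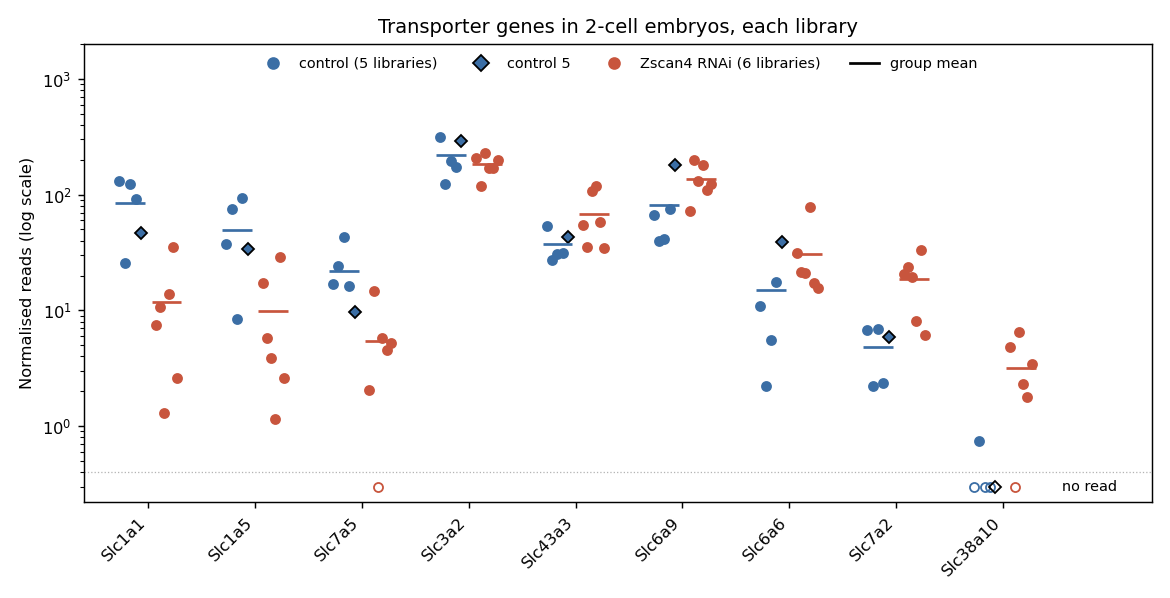
Normalised reads (log axis) of 9 members in each embryo library, controls in blue with control 5 as a diamond and RNAi in red, with group means as bars and libraries without a read as open symbols at the bottom; the control mean of Slc38a10, below the axis, is not drawn. Slc1a1, Slc1a5 and Slc7a5 are lower with RNAi with 1 control within the RNAi range in each, and control 5 is the highest control for Slc6a9 and Slc6a6.

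Set side by side, 27 members were tested in both comparisons and 2 passed the threshold in both. Over all genes tested, 23.2% passed in ESCs and 18.2% in embryos. The share of all genes passing in both was not computed, so the 2 are not a result about the members. Slc1a5 was lower with overexpression and lower with RNAi, and Slc7a2 was lower with overexpression (log2 fold change -1.42) and higher with RNAi (1.66). Slc1a1, lower with RNAi, had a log2 fold change of 0.52 with overexpression, and Slc7a5, also lower with RNAi, had 0.05. Slc7a3, 1 of the 2 members called higher in ESCs, had 3 reads in the RNAi libraries and was not tested in embryos. Slc6a6 had -1.84 with overexpression and 1.25 with RNAi, the latter short of the threshold.

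**Figure D4:**
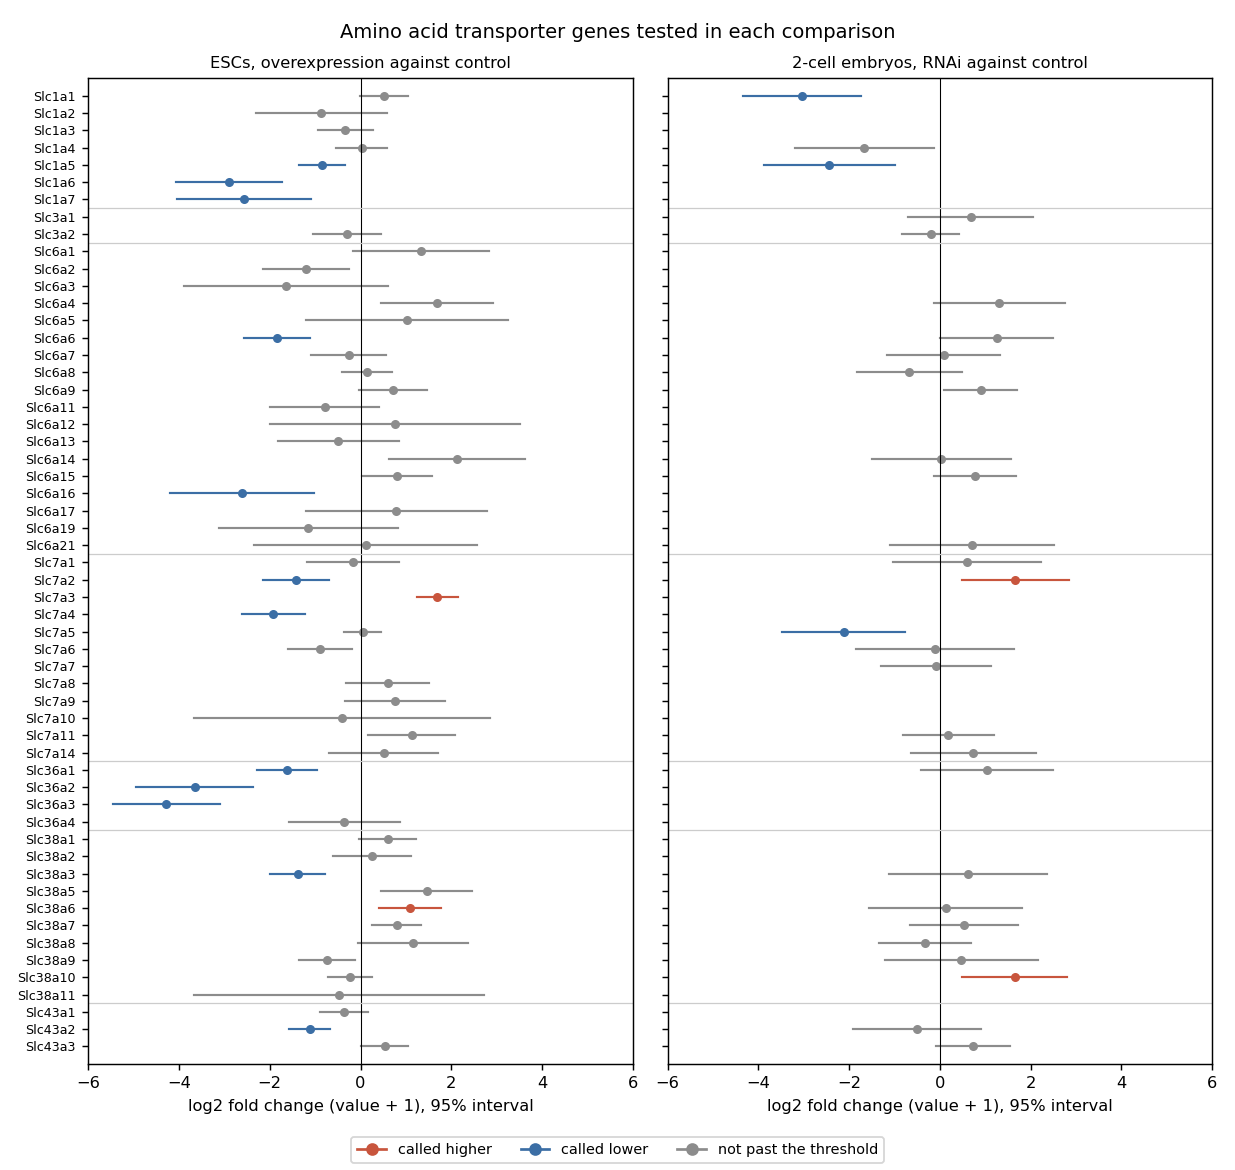
Log2 fold changes on the log2(value + 1) scale with 95% intervals for every member tested, by family, for overexpression against control in ESCs (left) and RNAi against control in embryos (right), red where called higher, blue where called lower and grey otherwise. Most embryo intervals are wider than the ESC interval of the same gene, and rows without a point were not tested in that comparison.

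Genes that sense or use amino acids were counted from lists drawn from general knowledge, but chosen with earlier results of these data known. The shares over all ESC genes were 11.7% higher and 11.4% lower. Among 36 tested genes of amino acid sensing by mTORC1, the growth-controlling kinase complex on lysosomes, 2 rose and 5 fell (median log2 fold change -0.15). Rragd, a Rag GTPase that recruits mTORC1, fell from 1162 and 1246 normalised reads to 134 and 93.0, 10.6-fold (limma adjusted p = 0.0116). Flcn, the activator of the Rag C and D proteins, fell 3.13-fold (limma adjusted p = 0.0138) and lies on chromosome 11, while Rraga rose 2.54-fold (limma adjusted p = 0.0181). In the Atf4 response to amino acid shortage 2 of 25 tested rose and 6 fell (median 0.11): Ddit4, an mTORC1 inhibitor, fell 13.8-fold from 10708 and 10495 to 722 and 809 (limma adjusted p = 0.0112), Stc2, on chromosome 11, fell 3.80-fold and Cth, which makes cysteine, rose 3.05-fold.

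Transporters of other families numbered 2 higher and 3 lower of 15 tested in ESCs (median -0.29). The vesicular GABA and glycine carrier Slc32a1, whose exons overlap Gm14205, fell 8.78-fold and the aromatic amino acid carrier Slc16a10 3.08-fold, and Slc25a18, a mitochondrial glutamate carrier with 3 control reads, had a ratio of reads of 11.3 (95% exact binomial interval 3.53 to 57.8) in the higher direction. In embryos, where 6.13% of all genes were higher and 12% lower, 1 of 12 tested passed, the mitochondrial branched-chain carrier Slc25a44, 2.31-fold lower with RNAi (limma adjusted p = 0.0366; list median -0.28). Of 37 sensing genes 2 rose and 2 fell there (median 0.38): Rraga rose 4.80-fold, with RNAi 6 at 137 and the other 5 RNAi libraries between 18.3 and 34.3 (limma adjusted p = 0.0201), Sesn2, a leucine sensor, fell 2.55-fold, and Tm4sf5 had a ratio of reads of 14.04 (95% exact binomial interval 4.40 to 71.6) in the lower direction. Of 21 genes of the Atf4 response 1 rose and 3 fell (median 0.26), the 3 being Ppp1r15a at 2.88-fold, Psat1, an enzyme of serine synthesis, at 3.11-fold and Trib3 at 2.64-fold.

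Markers of other cell types moved in the same comparisons. With overexpression the trophectoderm markers summed to 3104 to 3198 normalised reads in the controls and 32244 to 48731 in the overexpression libraries, with 6 of 9 tested higher, 0 lower and none at 0. Krt8 and Krt18 made up most of the overexpression sums. Tfap2c and Eomes lay below both controls in both overexpression libraries, without passing the threshold. The fibroblast markers summed to 2026 to 2079 and 5308 to 7403, with 3 of 8 tested higher and 2 lower, and Dcn, Lum and Postn had no control reads; most of that rise was in Tagln, from 234 and 240 to 3585 and 5262, and the sum without Tagln was 1845 and 1786 in the controls and 1723 and 2141 with overexpression. Of 10 pluripotency markers 2 were higher and 0 lower (sums 101002 to 101394 and 113818 to 149296). In embryos 4 of 11 oocyte markers were higher and 6 of 10 2-cell markers lower with RNAi. Those 6 include Zscan4d and Zscan4f, of the family that the RNAi targets. Cumulus cell markers summed to 21.0 to 78.2 in controls and 4.34 to 27.1 with RNAi, with Amh, Has2, Inha and Inhba at 0 in every library. Amhr2 made up most of each control sum, at 19.3 to 61.2, and was 0 to 23.8 with RNAi. The part of these shifts in the transporter values was not tested.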

How the data were processed

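RNA levels were measured in 15 mouse libraries; the titles say RNA-Seq, although the labels give genomic DNA and a DNA library kit. HISAT2, Trimmomatic and featureCounts were used on mm10, per the submitters' processing notes; no version, annotation or strand setting is given in the sources used here, so genes with overlapping exons have uncertain values. The authors deposited 1 table for ESCs and 1 for embryos, both holding a normalised signal: in each library 100% of values came out as whole reads, to within 0.01 of a read, once divided by 1 constant, as read counts divided by size factors would. The tables were normalised separately. There were 0 columns of per-sample values left unused.

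The test was limma 3.58.1 with a trend on log2(value + 1), fitted over all genes that reached 1 in 2 or more ESC or 5 or more embryo libraries; p-values were adjusted by Benjamini-Hochberg and called under 0.05. The fits were tested on simulated data with the same dispersion in both groups. That setting does not cover the unequal spread of the 2 ESC groups. Alternatives were pseudocounts of 0.5 and 5, no filter, a filter at 10, quantile normalisation, edgeR 4.0.16 and DESeq2 1.42.0 on the recovered whole reads, voom with quality weights, a replicate block and the spread of the overexpression libraries alone (ESCs), 3 chosen after seeing the data (equal chromosome median levels and equal chromosome median fold changes in ESCs, a block on column numbers in embryos), and leaving out each library. A group without reads was given a floor of 3 reads. The exact binomial intervals of read ratios cover counting error only, while the intervals of log2 fold changes come from the spread among libraries in limma.

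Named were all members past the threshold, the heavy chains, the 5 highest per kb in each control group, and up to 3 genes per list with the smallest p; other members named were chosen after their values were seen. Members, lists and motifs were chosen with earlier results of these data known. Positions, exon lengths and overlaps are from GENCODE vM21 (mm10), promoters from RefSeq (GRCm38.p6). Embryo control columns are numbered 1 to 5 and the labels number the controls 3 to 7, so numbers only name libraries.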

Additional observations from a re-analysis of the deposited data

Results flagged for a closer look

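In 22 groups of 4 to 10 embryo libraries checked for a library far from the others, 5 were marked by Dixon's criterion. Its rate of about 1 group in 20 holds for normally distributed values, which low read counts are not, so the 5 cannot be set against it. For Slc6a9, control 5 had 180.8 normalised reads and the other controls 39.8 to 74.9. For Slc6a6, RNAi 4 had 78.94 and the other RNAi libraries 15.6 to 31.6. For Slc1a1, RNAi 5 had 35.16 and the others 1.304 to 13.9. For Slc3a1, control 3 had 5.566 and the others 0 to 1.48. For Slc38a10, control 2 held the 1 read of its group, 0.7377 normalised reads, and the other controls had 0, so any single read there would be marked.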

How the results depend on the processing

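The count of higher ESC members, 2, was 1 with a pseudocount of 0.5 and 1 without the filter, 4 with the filter at 10, 0 with the spread of the overexpression libraries alone, and 0 to 8 when each library was left out. The count of lower ESC members, 12, was 5 with voom and quality weights, 0 with the spread of the overexpression libraries alone, and 0 to 16 when each library was left out. With equal median levels on each chromosome, and with the median fold change of each chromosome subtracted, the counts were 3 and 11. Whether equal replicate numbers pair the ESC libraries is not known. The deviations of the same-numbered libraries from their group means had r = -0.01 over 20888 genes, which cannot exclude a pairing. A replicate block gave 2 higher and 11 lower members, without the call of Slc1a5. In embryos the columns number the controls 1 to 5 and the labels 3 to 7, so the labels' numbers could not be matched to control columns. A replicate block on the column numbers, chosen after seeing the data, gave 0 higher members and 1 lower, Slc1a1. Same-numbered libraries had r from -0.06 to 0.04 over 16417 genes. No control correlated best with the RNAi library of its own number. At this depth such correlations cannot exclude a pairing. The count of higher embryo members, 2, was 3 with voom and quality weights, 1 with a pseudocount of 5, in edgeR and in DESeq2, 0 without the filter and 0 with the filter at 10, and 0 to 3 when each library was left out; the count of lower ones, 3, was 1 to 3 when each was left out, with 1 left without control 2 or without control 4. Directions reversed, short of the threshold, for Slc7a5 in ESCs after quantile normalisation (-0.10), Slc38a10 in ESCs with equal chromosome median levels (0.39) or fold changes (0.26), Slc3a2 in ESCs without overexpression 1 (range over the libraries left out -0.64 to 0.048), and Slc7a6 in embryos, from -0.10 to 0.0045 with a pseudocount of 5, 0.13 after quantile normalisation, 0.25 in edgeR, 0.16 in DESeq2, 0.14 with voom, 0.0086 with the block on column numbers, and -0.65 to 0.49 over the libraries left out, above 0 without control 4, control 5, or RNAi 2, 3 or 6. The cause of these changes was not tested. Embryo depth limits members of few reads: 31 of 60 were below the filter.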

Other observations

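Enzymes that make and break down amino acids were counted from a list chosen with earlier results known. In 2-cell embryos with Zscan4 RNAi 1 of 35 tested rose and 12 fell (median log2 fold change -0.39), where 6.13% of all genes rose and 12% fell. Glul, glutamine synthetase, had 775, 626, 572, 528 and 291 normalised reads in the controls and from 65.1 to 316, with a median of 154.4, with RNAi, 3.45-fold lower (limma adjusted p = 0.00384); its exons overlap Mir8114 and Teddm2. Gldc, the glycine decarboxylase, was 6.67-fold lower (limma adjusted p = 0.00458), with 3 of the 6 RNAi libraries at 0. Cdo1, which oxidises cysteine towards taurine, was 3.45-fold higher (limma adjusted p = 0.00211). Among 19 aminoacyl-tRNA synthetases tested in embryos 1 rose and 5 fell (median -0.30), among them Rars at 8.61-fold, Aars at 4.05-fold and Hars at 4.17-fold lower.

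In ESCs with overexpression 5 of 34 such enzymes rose and 2 fell (median 0.25). Mat2a, which makes S-adenosylmethionine, rose 2.52-fold from 2857 and 2773 normalised reads to 7797 and 6369 (limma adjusted p = 0.0189); its exons overlap Particl. Aldh4a1, of proline breakdown, fell 2.96-fold and Cdo1 fell 3.21-fold. Of 19 aminoacyl-tRNA synthetases tested 3 rose and 0 fell (median 0.40): Farsb at 1.87-fold, Wars at 1.92-fold and Cars at 1.63-fold. When control 1 or control 2 was left out, limma called 0 genes of the table, with 3617 and 3646 at an unadjusted p under 0.05.

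Of the other marker lists in ESCs, the 2-cell markers gave 6 higher of 10 tested, the oocyte markers 2 of 8, the primitive endoderm markers 1 higher and 1 lower of 7, the cumulus markers 1 and 1 of 10, the blood markers none of 5 and the neural markers 1 and 2 of 5. The 6 higher 2-cell markers include Zscan4c, Zscan4d and Zscan4f, of the overexpressed family. In embryos the pluripotency markers gave 3 lower of 10, the trophectoderm markers 1 lower of 5, the primitive endoderm markers 1 higher of 5, the fibroblast markers none of 2, the cumulus markers 1 lower of 3, the blood markers 1 lower of 3 and the neural markers 1 higher of 4.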
